A study of Mus musculus with 6 samples.

Results

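The 10 genes described here encode central members of the BCL2 family, the proteins that decide whether the outer membrane of mitochondria stays intact. They were selected by symbol, and all 10 were found among the 39234 genes of the deposited table and passed the filter on low counts. BCL2, BCL2L1 and MCL1 are anti-apoptotic, BAX and BAK1 are the pore-forming effectors, and PMAIP1, BBC3, BCL2L11, BID and BAD are BH3-only genes. The RNA came from HK-2, a human cell line of immortalized proximal tubule epithelium, in 3 control libraries and 3 libraries of cells overexpressing USAG-1, a secreted antagonist of BMP and Wnt signalling encoded by SOSTDC1. All 6 libraries carry the genotype label WT. The methods describe overexpression by transient transfection of a plasmid, and no agent, dose or time of collection for these cells, nor the plasmid given to the control cells, is stated in the sources used here. Mouse is given as organism in the labels, but HK-2 cells and the identifiers in the table are human. The methods give biological replicates for most experiments without naming the sequencing, so whether the libraries of a group came from separate cultures is not settled, and the p-values measure the spread between these libraries, which may be technical.

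In the intrinsic pathway of apoptosis, BAX and BAK1 proteins assemble in the mitochondrial outer membrane and let cytochrome c escape, which activates caspases. The anti-apoptotic proteins hold BAX, BAK1 and the BH3-only proteins in check, and BH3-only proteins relay upstream stress by binding into the groove of the anti-apoptotic proteins or by activating the effectors. In renal tubules this pathway is known as a route of cell loss after ischaemia. Much of its control lies in protein stability, phosphorylation and cleavage, which counts of RNA do not measure.

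Counts of SOSTDC1 were 79, 80 and 60 in control and 5072, 3907 and 4438 in USAG-1-overexpressing libraries, which separates the groups as labelled. The library totals ranged from 41236194 to 48699471 counted reads. Control replicate 3 stood apart: it was the library farthest from the others of its group in 43.6% of the 18188 genes tested, against 10.8% to 12.1% for each of the other libraries. Mitochondrially encoded genes took 4.80% to 5.59% of the counts in control libraries and 1.504% to 1.55% with overexpression. Of 16 markers of kidney epithelium and proximal tubule, PAX8, GGT1, DPP4, CDH2 and the keratins were detected, LRP2 had no count in any library, and PAX2, CUBN, AQP1 and SLC34A1 stayed under 1 CPM (counts scaled to a common library size by TMM, the trimmed mean of M-values) throughout. All 17 markers of T and NK cells were tested and 16 were called lower with overexpression. The summed level of all 17 was 127 to 149 CPM in control and 35.6 to 45.1 CPM in overexpressing libraries. Most of the sum with overexpression was IL7R, the marker not called lower. IL7R had 21.92, 21.0 and 17.8 CPM in control and 27.6, 23.6 and 21.94 CPM with overexpression (adjusted p = 0.161, edgeR). Markers of other blood cells were present as well, and their summed levels overlapped between the groups. Those of myeloid cells summed to 53.7 to 110 CPM in control and 42.2 to 79.6 CPM with overexpression. Of the 6 myeloid markers 1 was called lower, where 6.91% of all genes tested were called lower. It was LYZ, with 37.7, 21.8 and 23.3 CPM in control and 17.6, 14.5 and 17.6 CPM with overexpression (adjusted p = 0.0439, edgeR). Markers of platelets and erythroid cells summed to 8.19 to 109 CPM in control and 8.43 to 76.8 CPM with overexpression. Several BCL2 family genes are also used by lymphocytes, and the part of these transcripts in the results below was not tested. In bulk samples, fewer cells of a type and less RNA per cell cannot be told apart.

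With USAG-1 overexpression, the anti-apoptotic gene BCL2L1 rose 1.29-fold and the BH3-only gene PMAIP1 rose 1.28-fold. The other 8 genes did not pass an adjusted p of 0.05 (edgeR's quasi-likelihood test, Benjamini-Hochberg adjustment over all 18188 genes tested). Thus 2 of 10 were called, both higher, where 15.9% of all genes tested were called, 8.95% higher and 6.91% lower. At an unadjusted p under 0.05 there were 4, the others being MCL1 and BCL2L11 on the lower side. The share of all genes tested at that cut was not computed, and is at least the 15.9% called after adjustment. With all 6 libraries and the default filter, no gene of the 10 was called lower by edgeR or limma-voom, 2 were lower at an unadjusted p under 0.05 in edgeR, and DESeq2's Wald test called 1, MCL1. The control and overexpressing libraries did not overlap in 4 of the 10 (BCL2L1, PMAIP1, MCL1 and BCL2L11), 2 of them higher and 2 lower, where 37.6% of all genes tested showed no overlap, 19.4% higher and 18.1% lower. The median log2 fold change of the 10 was -0.05, beside -0.02 over all genes tested. These shares and medians lie near the background, so the account that follows concerns single genes.

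**Figure D1:**
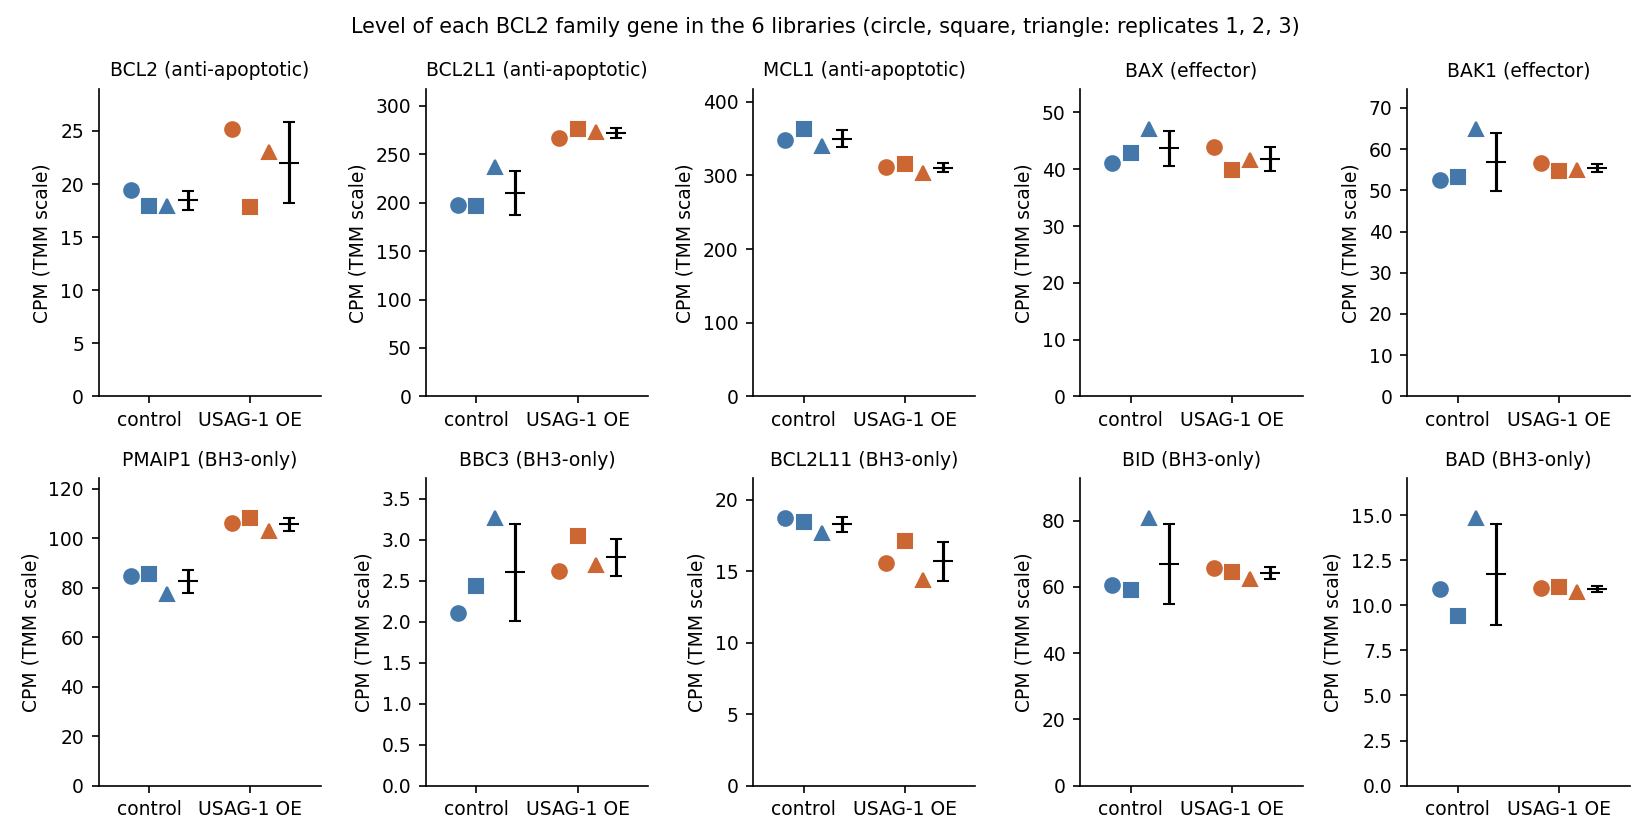
Level of each of the 10 genes in CPM on the TMM scale, on a linear axis that starts at 0 in each panel, for the 3 control and 3 USAG-1-overexpressing libraries (circle, square and triangle mark replicates 1, 2 and 3). The bar beside each group is the mean ± SD (n = 3). BCL2L1 and PMAIP1 lie higher in every overexpressing library, whereas control replicate 3 is the highest of the 6 libraries in BAX, BAK1, BBC3, BID and BAD.

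Among the anti-apoptotic genes, BCL2L1 (ENSG00000171552; hg38, chromosome 20, 31664452 to 31723989, minus strand) encodes Bcl-xL, a long-lived guardian of the mitochondrial membrane. It had 198, 197 and 237 CPM in control replicates 1, 2 and 3 and 266, 276 and 273 CPM in the overexpressing replicates. Every overexpressing library lay above every control library, and control replicate 3 was nearest to them. The mean was 210 ± 22.7 CPM in control and 272 ± 5.02 CPM in overexpressing cells (SD, n = 3 each). On the log2 scale the fitted change was 0.37, with a standard error (SE) of 0.08 and an adjusted p of 0.0172 by edgeR. Without control replicate 3 the log2 fold change was 0.47 (adjusted p = 3.88e-05, edgeR). With any other library left out it was 0.32 to 0.39 and no longer called, with an adjusted p of 0.0584 (without control replicate 1), 0.0689 (without control replicate 2), 0.0637, 0.0819 and 0.0751 (without overexpression replicates 1, 2 and 3, edgeR).

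The gene ABALON lies inside BCL2L1 on the opposite strand over 1903 bases, and BCL2L1-AS1 on that strand had at most 3 counts. ABALON had 280, 354 and 433 counts in control libraries and 444, 526 and 571 with overexpression, far fewer than the 8256 to 12225 counts of BCL2L1. Its log2 fold change was 0.54 (SE 0.19), which did not pass (adjusted p = 0.0932, edgeR). The libraries are described as strand-specific, but the strand setting of the counting is not given in the sources used here. Counts per gene do not separate the long anti-apoptotic isoform of BCL2L1 from its short pro-apoptotic isoform.

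MCL1 (ENSG00000143384; hg38, chromosome 1, 150560895 to 150579610) encodes a short-lived anti-apoptotic protein that binds NOXA, BIM and BAK. Its level was 348, 363 and 339 CPM in control libraries and 312, 316 and 303 CPM with overexpression. The groups did not overlap, and the spread within each was small. The log2 fold change was -0.17 (SE 0.05, 95% CI -0.29 to -0.05), and the adjusted p of 0.0597 missed the threshold in edgeR's quasi-likelihood test. MCL1 was called lower without control replicate 3 (-0.19, adjusted p = 0.00369, edgeR), by DESeq2's Wald test (-0.18, adjusted p = 0.0124) and with a filter of at least 10 counts in every library (-0.18, adjusted p = 0.0467, edgeR). Leaving out any other library gave -0.15 to -0.18 and no call (adjusted p = 0.1296 to 0.2131, edgeR).

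BCL2, the founding member of the family, lies on chromosome 18 (ENSG00000171791; hg38, 63123346 to 63320128). It had 19.4, 18.0 and 18.0 CPM in control libraries and 25.2, 17.8 and 23.1 CPM in overexpressing ones. Replicates 1 and 3 of the overexpressing group were above all controls, while replicate 2 was the lowest of the 6 libraries. The log2 fold change of 0.26 (95% CI -0.04 to 0.55) did not pass (adjusted p = 0.223, edgeR's quasi-likelihood test). Its size rested on single libraries, with 0.39 without overexpression replicate 2 and 0.15 without replicate 1, neither of them called.

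The effectors did not pass the test in any of the alternatives run. BAX, whose protein waits in the cytosol, had 41.1, 42.9 and 47.1 CPM in control and 44.0, 39.9 and 41.6 CPM in overexpressing libraries. Its log2 fold change was -0.06 (95% CI -0.23 to 0.11, adjusted p = 0.630, edgeR), and no value lay outside the range of the controls except that of overexpression replicate 2. BAK1, whose protein sits in the outer membrane itself, had 52.6, 53.2 and 64.9 CPM in control and 56.6, 54.8 and 55.1 CPM in overexpressing libraries. The log2 fold change of BAK1 was -0.04 (95% CI -0.24 to 0.17, adjusted p = 0.826, edgeR). On the fold scale these intervals run from 0.851 to 1.08 for BAX and from 0.848 to 1.12 for BAK1, so larger changes lie outside them. Without control replicate 3 the sign turned, to 0.0012 for BAX and 0.08 for BAK1, neither of them called.

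**Figure D2:**
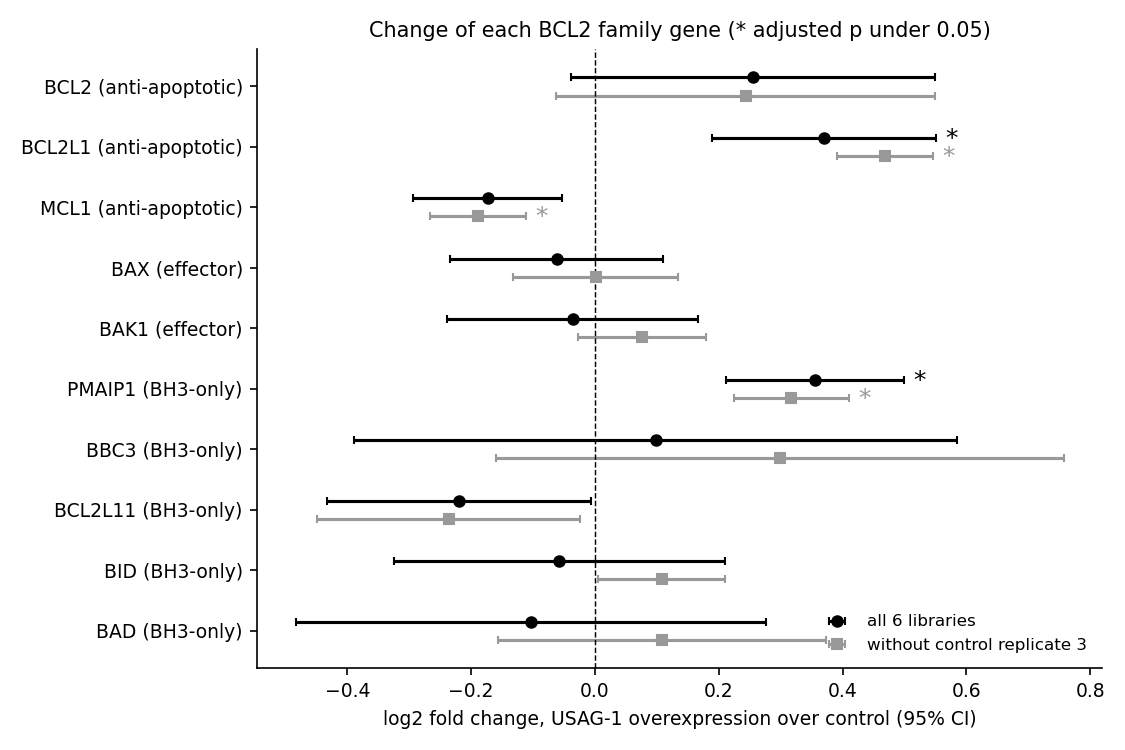
Log2 fold change of each gene, USAG-1 overexpression over control, with its 95% CI, in all 6 libraries (black circles) and without control replicate 3 (grey squares). An asterisk marks an adjusted p under 0.05 by edgeR's quasi-likelihood test. BCL2L1 (0.37 and 0.47) and PMAIP1 (0.36 and 0.32) are marked in both fits, MCL1 (-0.17 and -0.19) without control replicate 3 alone, and BAX, BAK1, BID and BAD lie on different sides of 0 in the 2 fits.

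Of the BH3-only genes, PMAIP1 was called. It encodes NOXA, a BH3-only protein that binds MCL1 with preference and is a known target of the integrated stress response. PMAIP1 (ENSG00000141682; hg38, chromosome 18, 59899996 to 59904305) had 84.6, 85.7 and 77.2 CPM in control libraries and 106, 108 and 103 CPM with overexpression. All overexpressing libraries lay above all control libraries. The mean was 82.5 ± 4.58 CPM in control and 106 ± 2.62 CPM in overexpressing cells (SD, n = 3 each), and the fitted log2 change was 0.36 (SE 0.06, adjusted p = 0.00803 by edgeR). The call was kept in all 14 alternatives, with log2 fold changes of 0.32 to 0.38 and adjusted p-values up to 0.0490. No other gene in the table overlaps PMAIP1.

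BCL2L11 encodes BIM, which binds all the anti-apoptotic proteins and can activate the effectors. It had 18.7, 18.4 and 17.7 CPM in control libraries and 15.6, 17.1 and 14.4 CPM with overexpression. Although the groups did not overlap, the log2 fold change of -0.22 (95% CI -0.43 to -0.01) did not pass (adjusted p = 0.153, edgeR), and it ranged from -0.28 to -0.16 over the alternatives without a call. BCL2L11 (ENSG00000153094; hg38, chromosome 2, 111119378 to 111168445) lies wholly within MIR4435-2HG on the opposite strand. MIR4435-2HG had 1514 to 2022 counts a library, against 621 to 909 for BCL2L11, and its level was 38.8 ± 2.37 CPM in control and 43.9 ± 0.726 CPM in overexpressing cells (SD, n = 3 each).

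The other BH3-only genes did not pass. BBC3, which encodes the BH3-only protein PUMA, was low, with 2.11, 2.43 and 3.26 CPM in control and 2.61, 3.05 and 2.69 CPM in overexpressing libraries. At 88 to 139 counts a library its interval was the widest of the 10, a log2 fold change of 0.10 (95% CI -0.39 to 0.58, adjusted p = 0.800, edgeR). Without control replicate 3 it was 0.30 and without control replicate 1 it was -0.03, neither of them called.

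BID links death receptors to mitochondria once its protein is cut by caspases. It had 60.4, 59.2 and 80.7 CPM in control and 65.7, 64.4 and 62.3 CPM in overexpressing libraries, so that control replicate 3 alone set the upper end. The log2 fold change of BID was -0.06 (95% CI -0.32 to 0.21, adjusted p = 0.786, edgeR) and 0.11 (adjusted p = 0.115, edgeR) without control replicate 3.

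BAD encodes a BH3-only protein controlled by phosphorylation downstream of survival signals. It had 10.9, 9.40 and 14.8 CPM in control and 10.9, 11.04 and 10.7 CPM with overexpression, so that control replicate 3 again set the upper end. Its log2 fold change was -0.10 (95% CI -0.48 to 0.28, adjusted p = 0.725, edgeR), and 0.11 without control replicate 3 (adjusted p = 0.548, edgeR). GPR137 overlaps BAD on the opposite strand over 14604 bases and had 582 to 754 counts a library, against 456 to 632 for BAD.

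The spread within the groups therefore differed from gene to gene. In 8 of the 10 genes the coefficient of variation was larger among control than among overexpressing libraries, and it reached 23.9% for BAD, 22.8% for BBC3 and 18.1% for BID in control, against 1.44%, 8.30% and 2.68% with overexpression. BCL2 and BCL2L11 went the other way, with 4.66% and 2.92% in control and 17.1% and 8.61% with overexpression. The share of all genes tested that varied more among control libraries was not computed, so the 8 of 10 is not a result about the family. Control replicate 3 was the library farthest from its group in 7 of the 10 genes, where it was so in 43.6% of all genes tested. In that library BCL2L1, BAX, BAK1, BBC3, BID and BAD were higher and BCL2, MCL1, PMAIP1 and BCL2L11 lower than the mean log2 level of the other control libraries. The shift was largest for BAD (0.55 on the log2 scale), BBC3 (0.53) and BID (0.43).

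Ratios of counts between genes within a library do not depend on the scaling, and a gene's length cancels when such ratios are compared between libraries. The 7 pro-apoptotic genes were each set against the 3 anti-apoptotic genes, which gave 21 ratios that share numerators and denominators and were not tested. Against BCL2L1 all 7 ratios were lower on average with overexpression, with differences of -0.02 to -0.597 on the log2 scale, and in 5 of them the groups did not overlap. BCL2L1 had the largest log2 fold change of the 10 genes (0.37), so lower mean ratios against it follow from its own change. How many of all genes tested would separate in this way against BCL2L1 was not computed. The log2 ratio of BAX to BCL2L1 was -2.27, -2.20 and -2.33 in control and -2.597, -2.79 and -2.72 in overexpressing libraries. For BAK1 to BCL2L1 it was -1.91, -1.89 and -1.87 in control and -2.23, -2.33 and -2.31 with overexpression. In the ratios of BAX and BAK1 to BCL2L1, control replicate 3 lay with the other controls, unlike in the levels of these genes themselves. That did not hold for every ratio against BCL2L1. In control replicates 1, 2 and 3, PMAIP1 to BCL2L1 was -1.23, -1.20 and -1.62 and BCL2L11 to BCL2L1 was -3.40, -3.42 and -3.74.

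MCL1 had a log2 fold change of -0.17, and only that of BCL2L11 was lower (-0.22). Mostly higher ratios against MCL1 therefore follow from its own change. Against MCL1, 6 of 7 ratios were higher on average, with no overlap in 1 of them. That was PMAIP1 to MCL1, a gene pair whose proteins bind each other, with log2 ratios of -2.04, -2.08 and -2.14 in control and -1.56, -1.55 and -1.56 with overexpression. The log2 fold change of BCL2 was 0.26, below only those of BCL2L1 and PMAIP1, so mostly lower ratios against BCL2 follow as well. Against BCL2, 6 of the 7 ratios were lower on average, with PMAIP1 to BCL2 higher (0.12), and 6 overlapped. The ratio without overlap was BCL2L11 to BCL2, at -0.058, 0.04 and -0.02 in control and -0.69, -0.062 and -0.68 with overexpression. Its groups were kept apart only by the narrow gap between control replicate 1 and overexpression replicate 2. The ratio of BCL2L1 to MCL1 was -0.81, -0.88 and -0.52 in control and -0.23, -0.19 and -0.15 with overexpression on the log2 scale, without overlap. BAX to BAK1 overlapped, at -0.36, -0.31 and -0.46 in control and -0.36, -0.46 and -0.40 with overexpression.

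**Figure D3:**
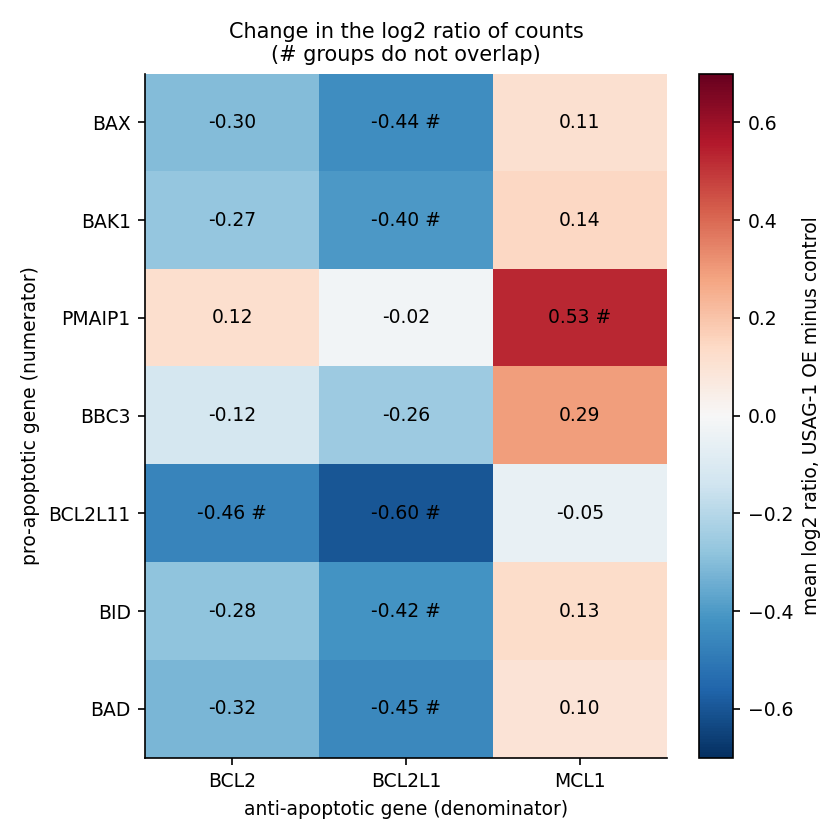
Mean log2 ratio of counts in USAG-1-overexpressing libraries minus that in control libraries, for each pro-apoptotic gene (rows) over each anti-apoptotic gene (columns), n = 3 each. A hash marks ratios without overlap between the groups, and no test was run. The BCL2L1 column is below 0 throughout (-0.02 to -0.597), and PMAIP1 over MCL1 is the highest value (0.53). The sign of the BCL2L1 column follows from BCL2L1 having the largest log2 fold change of these genes.

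Further genes of the pathway were described by lists typed from general knowledge. Of 13 other BCL2 family genes, BCL2L10 and BCL2L14 did not pass the filter on low counts, and among the 11 tested 1 rose and 1 fell, where 8.95% and 6.91% of all genes tested were called higher and lower, with a median log2 fold change of 0.15. BMF, a BH3-only gene tied to the cytoskeleton and to death on loss of attachment, had 17.9, 20.4 and 15.3 CPM in control and 10.1, 8.34 and 7.62 CPM in overexpressing libraries. It fell by 1.04 on the log2 scale (SE 0.15, adjusted p = 0.00336 by edgeR), the largest change of a called gene in these lists, and kept its call in all 14 alternatives. BCL2L13, a receptor in the removal of mitochondria by autophagy, rose by 0.22 (SE 0.06, adjusted p = 0.0339, edgeR). Its call was lost without each library other than control replicate 3 (0.20 to 0.24, adjusted p = 0.0916 to 0.138, edgeR), without the filter on low counts (0.22, adjusted p = 0.0516, edgeR) and with a replicate block (0.22, adjusted p = 0.0694, edgeR).

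None of the 15 caspase and apoptosome genes was called by edgeR, DESeq2 or limma-voom, and 4 were lower at an unadjusted p under 0.05 in edgeR, DIABLO, ENDOG and CYCS among them. The share of all genes tested that were lower at that cut was not computed. It is at least the 6.91% called lower after adjustment. The median of the list was -0.00, beside -0.02 over all genes tested. Without control replicate 3 the list held 3 called genes, HTRA2 and AIFM1 higher and CYCS lower, in a fit that called 27% of all genes tested.

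Among 7 tested genes of the inhibitors of apoptosis, 2 fell, where 6.91% of all genes tested were called lower, and the median log2 fold change was -0.19. BIRC5, which encodes survivin, a protein of dividing cells, had 102, 102 and 110 CPM in control and 82.8, 83.6 and 81.4 CPM in overexpressing libraries. It fell by 0.34 on the log2 scale (SE 0.06, adjusted p = 0.00739, edgeR) and kept its call in all 14 alternatives. NAIP, better known as an inflammasome sensor, fell by 0.93 (SE 0.23, adjusted p = 0.0324, edgeR). The call of NAIP was lost without each library other than control replicate 3 (-0.77 to -1.03, adjusted p = 0.0816 to 0.122, edgeR) and without the filter on low counts (-0.93, adjusted p = 0.0644, edgeR). NAIP has near-identical copies in the genome, so its counts are uncertain.

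Of the 11 genes of death receptor signalling, 2 fell, beside the same 6.91% of all genes tested, with a median log2 fold change of -0.26. TNFSF10, the ligand TRAIL, had 227, 239 and 226 CPM in control and 163, 174 and 163 CPM with overexpression, a log2 fold change of -0.47 (SE 0.06, adjusted p = 0.00170, edgeR). TNFRSF10D, a decoy receptor for TRAIL, had 86.8, 89.2 and 91.6 CPM in control and 69.3, 64.2 and 71.6 CPM with overexpression, a log2 fold change of -0.38 (SE 0.06, adjusted p = 0.00608, edgeR). Both kept their calls in all 14 alternatives. The signalling receptors of TRAIL did not pass, with log2 fold changes of 0.40 for TNFRSF10A (adjusted p = 0.0986, edgeR) and 0.04 for TNFRSF10B (adjusted p = 0.621, edgeR). Without control replicate 3, TNFRSF10A and TNFRSF1A were called higher and FAS was called lower beside TNFSF10 and TNFRSF10D, where 27% of all genes tested were called. DESeq2's Wald test called FADD lower as well.

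Among 18 tested regulators of the family's transcription or turnover, 5 rose, where 8.95% of all genes tested were called higher, and the median log2 fold change was 0.10. DDIT3, the stress factor CHOP, had 11.1, 12.04 and 9.03 CPM in control and 14.5, 16.5 and 18.0 CPM with overexpression, a log2 fold change of 0.61 (SE 0.14, adjusted p = 0.0213, edgeR). USP9X, a deubiquitinase that stabilizes MCL1 protein, rose by 0.36 (adjusted p = 0.0276, edgeR), FOXO3, a transcription factor of BH3-only genes, by 0.26 (adjusted p = 0.0169, edgeR) and E2F1, a driver of the cell cycle, by 0.25 (adjusted p = 0.0218, edgeR). ATF4, the factor upstream of DDIT3 in the integrated stress response, rose by 0.23 (adjusted p = 0.0296, edgeR) and was named after its values were seen. MDM2, a ubiquitin ligase, did not pass (0.07, adjusted p = 0.534, edgeR).

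None of these 5 calls was kept with every library left out in turn, though each log2 fold change kept its sign. In all 5 genes the control and overexpressing libraries did not overlap, which calls made on these same libraries favour. Of the 18 tested regulators 8 showed no overlap, where 37.6% of all genes tested showed none. The number of called regulators was 10 without control replicate 3, 2 without control replicate 1 or 2, 1 without overexpression replicate 1 and 0 without overexpression replicate 2 or 3. Of all genes tested, these fits called 27% in either direction without control replicate 3, 10.2% and 8.74% without control replicates 1 and 2, and 6.92%, 5.98% and 7.09% without overexpression replicates 1, 2 and 3. DDIT3 lost its call without overexpression replicates 2 (0.60) and 3 (0.53), and USP9X without each overexpressing library (0.34 to 0.39) and without the filter on low counts (0.36). The values of FOXO3 and E2F1 moved little when their calls were lost, at 0.24 to 0.27 and 0.23 to 0.27, and ATF4 lost its call at 0.20 to 0.26. DDIT3 overlaps MARS1 and MBD6, so its counts may hold reads of those genes.

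**Figure D4:**
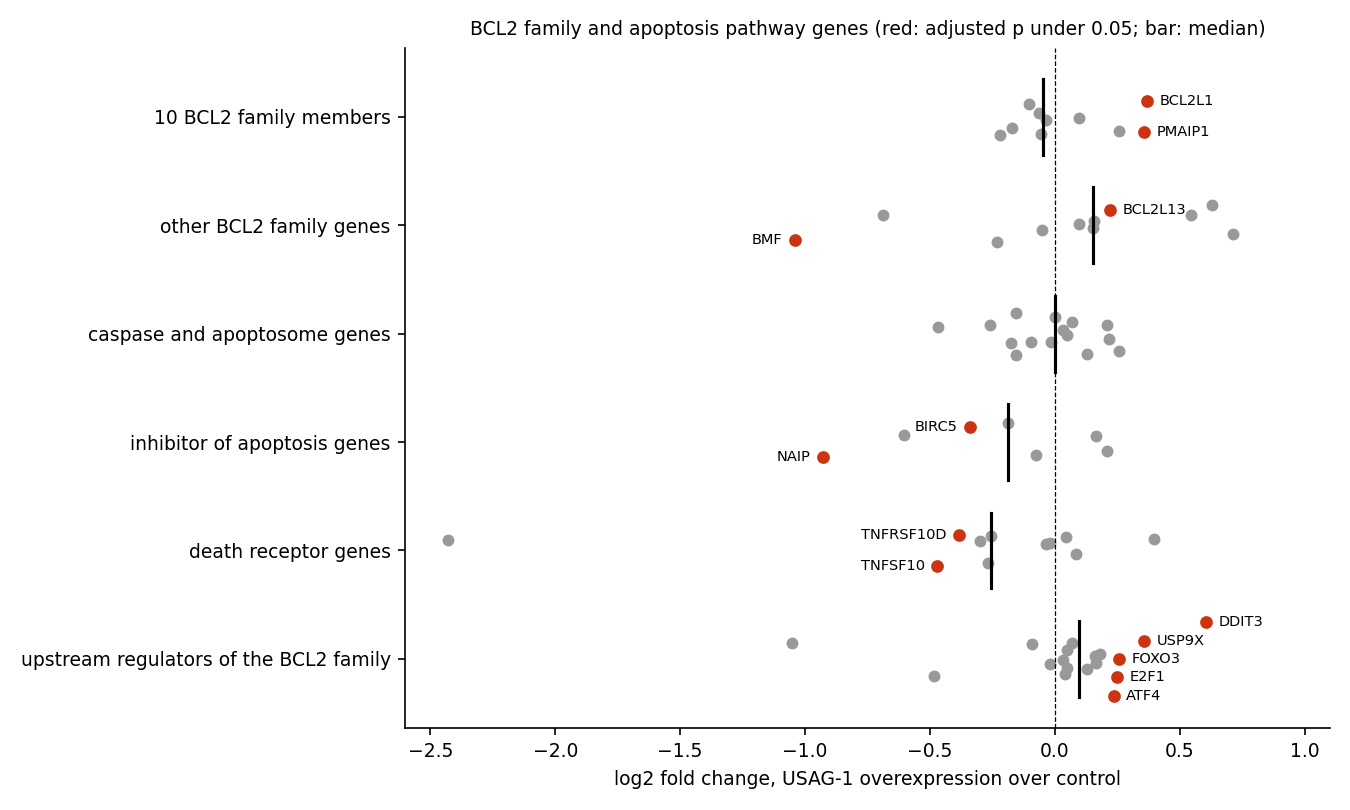
Log2 fold change, USAG-1 overexpression over control, of each gene tested in the family of 10 and in the 5 further lists. Each point is a gene, red where the adjusted p was under 0.05 by edgeR's quasi-likelihood test, and the black bar is the median of the list. The medians run from -0.26 for the death receptor genes to 0.15 for the other BCL2 family genes, and the leftmost point is FASLG (-2.43), which was not called.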

How the data were processed

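RNA-seq libraries of HK-2 cells (3 control, 3 USAG-1 overexpression) were compared. The authors deposited whole-number read counts per gene, not normalized, in a table named for FPKM. The submitters' processing notes name cutadapt 1.9, FastQC and hg38. The aligner, counting tool and annotation are not given in the sources used here. The labels describe both oligo(dT) selection with strand-specific paired reads of 150 bases and removal of ribosomal RNA. After filterByExpr and TMM scaling, genes were compared with edgeR 4.0.16 in R 4.3.3 (quasi-likelihood test, no replicate block, adjusted p under 0.05 over 18188 genes). Standard errors (SE) and intervals were derived from the F statistic. DESeq2 1.42.0, limma-voom (limma 3.58.1), other scalings and filters, a replicate block and each library left out were alternatives. The methods state DESeq2. At these depths 3 counts correspond to 0.0608 to 0.0719 CPM, which covers counting error only.

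The 10 genes and the lists were chosen with earlier results of these data known. Named genes are the 10, SOSTDC1 and, per list, at most 4 called genes with the smallest p, or the 1 with the smallest p where none was called; others were named after their values were seen, and some genes of the lists are not reported here. Libraries of a group differed by a chi-square of at least 6.79 per degree of freedom, so none was a copy. On simulated counts, edgeR recovered 56.2% of genes changed by 1 on the log2 scale and 87.2% of those changed by 2 among 17702 tested, with 5.56% of its calls false, and DESeq2 had 18.3% of its calls false. Smaller changes, such as the -0.22 to 0.37 of the 10 genes, were not simulated. Nor was a library that stands apart over many genes, as control replicate 3 did. The genome reference at hand was of mouse, so no sequence or transcript length was used, and levels of different genes were not ranked.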

Additional observations from a re-analysis of the deposited data

How the results depend on the processing

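The SOSTDC1 log2 fold change kept its call throughout (5.86 to 6.05). Of the 2 called genes, PMAIP1 kept its call in all 14 alternatives and BCL2L1 did not. The number of genes called in the whole table ran from 1137 (without overexpression replicate 2) to 5091 (without control replicate 3) around 2884. With each library left out, 1 to 2 of the 10 were called higher and 0 to 1 lower. DESeq2's Wald test and at least 10 counts in every library each gave 1 called lower. With each library left out, the log2 fold change crossed 0 for BAX (-0.10 to 0.0012), BAK1 (-0.088 to 0.075), BBC3 (-0.030 to 0.30), BID (-0.14 to 0.11) and BAD (-0.24 to 0.11). For each of them the sign turned in 1 fit, without control replicate 1 for BBC3 and without control replicate 3 for the others. For the lists, leaving out a library gave 0 to 1 other BCL2 family genes higher, 0 to 2 caspase and apoptosome genes higher and 0 to 1 lower, 1 to 3 inhibitors of apoptosis lower, 0 to 2 death receptor genes higher and 2 to 3 lower, and 0 to 10 regulators higher. Without the filter on low counts there were 0 other BCL2 family genes higher, 1 inhibitor of apoptosis lower and 3 regulators higher. Fewer libraries, or more genes to adjust over, change these counts by construction, and further causes were not tested. With a replicate block, 2 of the 10 stayed called higher and 0 other BCL2 family genes were higher, in place of 1. The replicate numbers were not treated as pairs, since deviations of same-numbered libraries correlated at 0.07, -0.05 and 0.04 over all genes tested, and control replicate 2 correlated best with overexpression replicate 1. The block moved the count over all genes from 2884 to 2381. Genes with few counts, such as BBC3 at 88 to 139 counts a library, could not be told from no change within a wide interval.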

Other observations

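A pair of apoptosis genes that are best known from lymphocytes and other leukocytes were at low levels and are given as values. FASLG, the ligand of the death receptor FAS and a product of cytotoxic T and NK cells, had 13, 18 and 35 counts in control libraries and 4, 8 and 0 counts in overexpressing libraries. BCL2A1, an anti-apoptotic family member of haematopoietic cells, had 66, 53 and 107 counts in control and 13, 82 and 45 counts with overexpression, with overlap between the groups. Neither passed the test (adjusted p = 0.105 for FASLG and 0.485 for BCL2A1, edgeR's quasi-likelihood test). The T cell receptor gene TRAC and the cytotoxic granule gene GZMB moved in the same libraries, from 10.2 ± 0.672 to 0.475 ± 0.344 CPM and from 9.35 ± 2.37 to 0.468 ± 0.0691 CPM (SD, n = 3 each), and the part of such transcripts in the levels of FASLG was not tested.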
